A study of Mus musculus with 25 samples.

Results

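The chemokine Cxcl12 and its receptors Cxcr4 and Ackr3 were followed through cultured hepatic progenitors and through tumours of the liver and the peritoneum. The members are 3 of the 24984 genes in the count table. They were taken by symbol, and the set was chosen by the levels of Cxcl12, which was lost in cultured RasHIGH cells and high in the stroma of peritoneal tumours. Those levels are therefore given as a description with no test, while Cxcr4 and Ackr3 were tested in every comparison in which they had counts.

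Cxcl12, also called SDF-1, is a secreted chemokine made by mesenchymal and endothelial cells, and it holds leukocytes and progenitors in the tissues that produce it. Cxcr4 is its G protein-coupled receptor, used by most leukocytes to move towards the ligand. Ackr3, formerly Cxcr7, is an atypical receptor that binds Cxcl12 with high affinity, recruits arrestins rather than G proteins, and clears the ligand by taking it into the cell.

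Bipotential mouse embryonic liver (BMEL) cells are untransformed hepatic progenitors, here a clonal line from a C57BL/6 and C3H background. Control cells with an empty vector (BMEL WT), and populations sorted for low (RasLOW) or high (RasHIGH) expression of a vector carrying the oncogenic H-Ras allele G12V with a fluorescent protein, were sequenced as 3 cultures each. Tumours of Ras-transformed BMEL cells were raised in athymic nude mice, which lack T cells, and for each of 4 mice a liver tumour and a peritoneal tumour were dissociated and sorted into fluorescent tumour cells and non-fluorescent stromal cells. This gave liver tumour cells, peritoneal tumour cells, liver stromal cells and peritoneal stromal cells, with 4 libraries each and 25 libraries in all. All groups other than the stromal cells derive from 1 clonal line, and the stroma is that of a host with no T cells. The ages of the mice and the Ras population that gave rise to each sequenced tumour are not given in the labels.

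Total counts ran from 20818989 to 51241336 per library, so that 3 counts, taken as the detection floor, corresponded to 0.0576 to 0.141 CPM, the counts of a gene scaled to a common library size. Markers of epithelial and BMEL cells, summed over 6 genes, stood at 7710 to 10900 CPM in tumour cells and at 665 to 1540 CPM in stromal cells. The 6 pan-leukocyte markers summed to 2420 to 4560 CPM in stroma and to 27.7 to 95.2 CPM in tumour cells, where Cd53 alone had a mean of 60.5 CPM in the liver and 30.9 CPM in the peritoneum and the 5 others summed to 4.78 to 60.6 CPM. The peritoneal tumour cell library of mouse 1 stood apart, with 1470 CPM over 8 fibroblast markers against 214 to 328 CPM in the other 3 peritoneal tumour cell libraries, and with 228 CPM over 6 macrophage markers against 21.8 to 34.9 CPM. Fits of the 3 members that rest on this library are given with and without it, or with the range over fits that each left out 1 library. Those of the pathway genes are given only with it. The endogenous Hras row did not separate the Ras populations and is no check of the transgene. Its mean was 80.5 ± 8.23 CPM in the control, against 78.6 ± 28.4 CPM for RasLOW cultures and 67.4 ± 15.2 CPM for RasHIGH cultures (SD, n = 3).

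Cxcl12 lies on chromosome 6 of the mm9 build at chr6:117118553-117131385, on the plus strand, and its exons cover 8176 bases. Cxcr4 lies on chromosome 1 at chr1:130484776-130488870 on the minus strand, with 1808 exonic bases. Ackr3, listed in that annotation as Cxcr7, lies on chromosome 1 at chr1:92100555-92113326 on the plus strand, with 3348 exonic bases. None of the 3 loci overlapped another annotated gene.

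In culture the ligand was lower in RasLOW than in control cells and had no count in RasHIGH. Cxcl12 was at 47.7, 79.2 and 40.4 CPM in the 3 BMEL WT cultures. It was at 1.26, 7.19 and 1.91 CPM in RasLOW. It was at 0 in all 3 RasHIGH cultures, where 3 counts would have been at most 0.135 CPM. Every RasLOW culture lay below every control. The share of all genes separated in this way was not counted, so this is only a description.

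The mean of Cxcl12 was 55.8 ± 20.6 CPM in BMEL WT and 3.45 ± 3.25 CPM in RasLOW (SD, n = 3), a 16.2-fold lower mean. This fall was called by edgeR's quasi-likelihood test, with a log2 fold change of -4.01 (SE 0.67) and an adjusted p of 0.0197. In that comparison 5.96% of all genes tested were called. Cxcl12 was chosen as lost in RasHIGH, which presumes a level in the control, so this call is no independent result. BMEL WT cultures 1 and 2 were sequenced in another lane than the 7 other cultures, and within the shared lane, with 1 BMEL WT culture, the log2 fold change was -3.57 with an adjusted p of 0.404 by edgeR. Leaving out any 1 of the 3 BMEL WT cultures, or RasLOW culture 3, raised the edgeR adjusted p to between 0.0525 and 0.0794 with log2 fold changes of -4.20 to -3.69. Against RasHIGH the mean of BMEL WT was at least 412-fold higher and that of RasLOW at least 25.5-fold higher, both computed against the floor of 3 counts in a library.

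Of the 6 nearest expressed genes around Cxcl12, 5 had counts in every RasHIGH culture. A level in RasHIGH could itself lead to a gene being picked, so this is only a description. The 3 nearest protein-coding genes on each side with at least 1 CPM in BMEL WT or RasHIGH were looked up after the values of Cxcl12 had been seen, and they lay 539.5 to 759 kb away. Hnrnpf, which encodes an RNA-binding splicing factor, was at 777 ± 19.7 CPM in BMEL WT and 744 ± 154 CPM in RasHIGH. March8, which encodes a ubiquitin ligase of membrane proteins, was at 60.9 ± 5.76 CPM and 92.0 ± 8.49 CPM. Zfp422 was at 43.9 ± 8.54 and 30.3 ± 5.73 CPM, Zfp637 at 20.7 ± 0.107 and 14.3 ± 1.72 CPM, and Zfp239 at 3.95 ± 1.25 and 5.09 ± 1.21 CPM in the same order (SD, n = 3 each). The exception was Alox5, which encodes arachidonate 5-lipoxygenase and was low throughout, at 1.07 ± 0.799 CPM in BMEL WT and at 0 to 0.0902 CPM in the RasHIGH cultures.

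The signalling receptor was not detected in culture. Cxcr4 had no count in any of the 9 cultured libraries, which allows a level of up to 0.0984 to 0.135 CPM depending on the library, and it could not be tested there.

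The atypical receptor was present in all cultures. Ackr3 was at 4.57, 4.55 and 8.03 CPM in BMEL WT and at 8.75, 12.6 and 14.5 CPM in RasHIGH. It was at 25.4, 8.10 and 2.11 CPM in RasLOW, whose cultures spanned the range of both other groups. All RasHIGH cultures lay above all BMEL WT cultures. The share of all genes separated in this way was not counted, so this is only a description.

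Ackr3 averaged 5.72 ± 2.0 CPM in BMEL WT and 12 ± 2.94 CPM in RasHIGH (SD, n = 3). The difference missed the threshold in edgeR, with a log2 fold change of 1.03 (SE 0.32) and an adjusted p of 0.0554, where 22.6% of genes were called. The adjusted p was 0.0105 by DESeq2 and 0.0464 by edgeR without the count filter, and by edgeR it was 0.0375 without BMEL WT culture 3 and 0.0177 without RasHIGH culture 1, so the call turned with these settings. In RasLOW the mean was 11.9 ± 12.1 CPM, the log2 fold change against BMEL WT was 1.0 (SE 0.75) and the edgeR adjusted p was 0.514. Between RasHIGH and RasLOW the log2 fold change of Ackr3 was 0.03 (SE 0.75) with an edgeR adjusted p of 0.995, and 0.0752% of genes were called in that comparison. Within the shared lane, Ackr3 in RasHIGH against the 1 remaining BMEL WT culture had a log2 fold change of 0.54 and an edgeR adjusted p of 0.667.

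**Figure D1:**
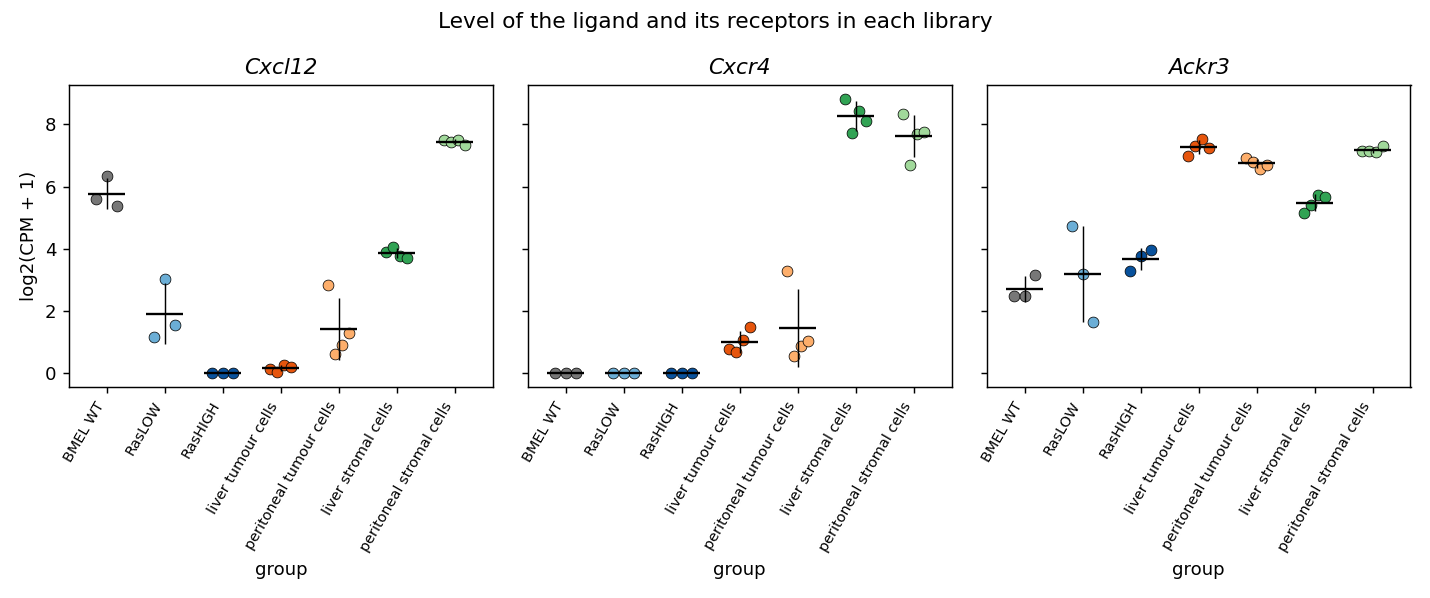
Each point is 1 library, grouped by cultured population or sorted tumour fraction, and the y axis is log2(CPM + 1); horizontal lines are means and vertical lines SDs of these log values. Cxcl12 was at 0 in all 3 RasHIGH cultures and at 161.8 to 182 CPM in peritoneal stromal cells, Cxcr4 was at 0 in all 9 cultures, and Ackr3 was at 94.4 to 184 CPM in the tumour cells against 2.11 to 25.4 CPM in culture.

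In tumours the receptors parted. Ackr3 was carried by the tumour cells themselves, at 125, 156, 184 and 151 CPM in the liver tumours of mice 1 to 4. It was at 121, 109.8, 94.4 and 102 CPM in their peritoneal tumours. The lowest of these 8 libraries lay above the highest of the 9 cultures, at 25.4 CPM. Such complete separation upwards was seen in 12.3% of the 12671 genes with at least 10 counts in at least 8 of these 17 libraries.

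The mean of Ackr3 in liver tumour cells, 154 ± 24.3 CPM (SD, n = 4), was 12.9-fold that of RasHIGH and 27.0-fold that of BMEL WT. In peritoneal tumour cells the mean of 107 ± 11.4 CPM was 8.93-fold and 18.7-fold the same means. Sorted tumour cells and cultures differ in handling as well as in origin, and no RasHIGH culture shared a lane with a sorted library. These folds are therefore given as a description with no test. The separation was chosen for counting after the values had been seen.

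Cxcr4 remained scarce in tumour cells. It was at 0.73, 0.622, 1.09 and 1.79 CPM in the liver tumours, from 22 to 56 counts. It was at 8.80, 0.462, 0.845 and 1.07 CPM in the peritoneal tumours, where mouse 1 alone was above 2 CPM. All 8 libraries lay above the cultures, which had no counts, but Cxcr4 passed the count filter through the tumour libraries alone and its separation is therefore no result.

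Stromal cells held nearly all of the Cxcr4. Its level was 453, 209.8, 346 and 273 CPM in liver stroma and 322, 103, 207 and 216 CPM in peritoneal stroma of mice 1 to 4. Stromal means were 321 ± 104 and 212 ± 89.7 CPM (SD, n = 4), 303-fold and 75.9-fold the means of the tumour cells at the same site. The edgeR log2 fold change of tumour against stromal cells was -8.30 (SE 0.35, adjusted p = 1.02e-09) in the liver and -6.20 (SE 1.0, adjusted p = 4.74e-04) in the peritoneum. These comparisons called 77.8% and 76.6% of all genes, so a call is the common outcome there. Without the peritoneal tumour cell library of mouse 1 the peritoneal log2 fold change of Cxcr4 was -8.10 (edgeR adjusted p = 1.04e-06). In such bulk libraries, fewer cells of a type and less RNA per cell cannot be told apart.

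Cxcl12 was close to the floor in liver tumour cells and above it in peritoneal tumour cells. The liver tumour cells gave 4, 1, 7 and 5 counts, which is 0.0912, 0.0283, 0.212 and 0.160 CPM. The peritoneal tumour cells gave 199, 20, 45 and 39 counts, which is 6.21, 0.544, 0.864 and 1.44 CPM. Mouse 1 was again the highest of the peritoneal libraries.

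Stromal Cxcl12 depended on the site. Liver stromal cells were at 14.0, 15.8, 12.7 and 12.1 CPM, with a mean of 13.6 ± 1.66 CPM. Peritoneal stromal cells were at 178.7, 171, 182 and 161.8 CPM, with a mean of 173 ± 8.88 CPM (SD, n = 4). The peritoneal level was 12.8, 10.8, 14.3 and 13.4 times the liver level within mice 1 to 4. This difference belongs to the values that chose the gene and was not tested, in a comparison in which edgeR called 33.4% of all genes. In the liver, the log2 fold change of Cxcl12 in tumour against stromal cells was -6.82 (SE 0.31, edgeR adjusted p = 1.74e-09). Cxcl12 had at most 7 counts in a liver tumour cell library and passed the count filter through the stroma alone. The call is therefore no result beside the levels themselves. Without the filter the log2 fold change was -6.81 (edgeR adjusted p = 6.86e-11).

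Fibroblast markers, like Cxcl12, were higher in peritoneal than in liver stroma. All 8 fibroblast markers had counts at both sites, and together they were at 4120 to 8280 CPM in liver stroma and at 53000 to 81300 CPM in peritoneal stroma. Within peritoneal stroma the fibroblast sums of mice 1 to 4 were 53000, 78200, 81300 and 56800 CPM. The 7 endothelial markers summed to 677 to 1430 CPM in liver stroma and to 500 to 711 CPM in peritoneal stroma. The 5 mesothelial markers summed to 75.8 to 161 CPM and to 108 to 137 CPM. Among them Msln averaged 56.5 CPM in liver stroma and 42.6 CPM in peritoneal stroma, against 252 and 421 CPM in tumour cells of these sites. Of the others, Wt1 had a higher mean in peritoneal than in liver stroma, 53.9 against 22.9 CPM, while Upk3b, Lrrn4 and Gpm6a had lower means. The part of these markers in the site difference of Cxcl12 was not tested.

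Ackr3 was the only member with more transcript in tumour cells than in stroma, and this held in the liver. Its stromal level was 34.8, 41.4, 51.6 and 50.1 CPM in the liver and 142, 139.9, 136 and 156 CPM in the peritoneum. In the liver, tumour cells were above stromal cells in each mouse, by 3.60, 3.78, 3.57 and 3.01 times. In the peritoneum the order turned, and stromal cells were above tumour cells by 1.17, 1.27, 1.45 and 1.53 times.

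The edgeR log2 fold change of Ackr3 in tumour against stromal cells was 1.77 (SE 0.14, adjusted p = 3.44e-07) in the liver and -0.36 (SE 0.09, adjusted p = 0.00676) in the peritoneum. The choice of scaling moved the median log2 fold change of all genes in the peritoneum from 0.07 by TMM to -0.07 with RLE size factors and 0.18 with library totals alone. Ackr3 was lower in peritoneal tumour cells under each of them, by -0.36, -0.50 and -0.25 on the log2 scale. Leaving out each of the 8 libraries in turn gave -0.52 to -0.29 (edgeR adjusted p = 5.66e-04 to 0.025).

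**Figure D2:**
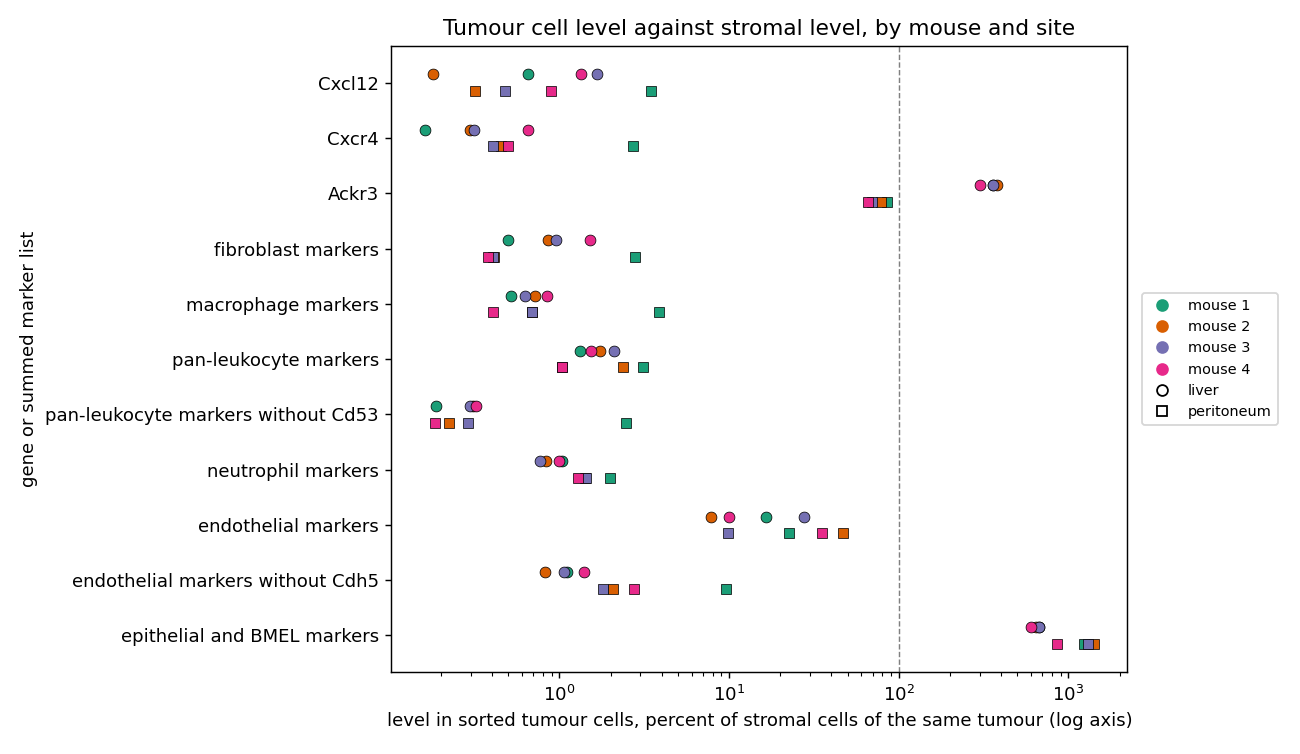
The x axis, on a log scale, gives the level in tumour cells as a percentage of that in stromal cells of the same tumour, for the members and for summed marker lists; colours are mice, circles liver and squares peritoneum. Cxcl12 lies at 0.179% to 3.48% and Cxcr4 at 0.161% to 2.73%, and Ackr3 lies at 301% to 378% in the liver and 65.5% to 85.2% in the peritoneum.

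Sorted tumour cells held low shares of the stromal Cxcl12 and Cxcr4, and of several stromal marker lists. Tumour cells had 0.179% to 1.67% of the stromal Cxcl12 in the liver and 0.318% to 3.48% in the peritoneum. For Cxcr4 the shares were 0.161% to 0.655% and 0.408% to 2.73%. Fibroblast markers were at 0.495% to 1.51% and 0.377% to 2.77%, macrophage markers at 0.519% to 0.843% and 0.404% to 3.84%, and pan-leukocyte markers at 1.32% to 2.09% and 1.03% to 3.11%. Outside the peritoneal library of mouse 1, most of the last share was Cd53, a tetraspanin of leukocytes that averaged 9.67 CPM in cultured RasHIGH cells, and the 5 other pan-leukocyte markers were at 0.187% to 0.324% and 0.184% to 2.47%.

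In the peritoneum mouse 1 had the highest share of each of these 5 measures. The part of stromal RNA in the tumour cell levels of Cxcl12 and Cxcr4 was not tested. The shares of Ackr3 were above those of these 3 lists, at 301% to 378% in the liver and 65.5% to 85.2% in the peritoneum. Endothelial markers were at 7.86% to 27.6% and 9.90% to 46.9%, most of it Cdh5, the endothelial cadherin, which averaged 8.56 CPM in cultured RasHIGH cells and had shares of 38.2% to 182% and 39.6% to 213%. In the peritoneum the Cdh5 share was above that of Ackr3 in mice 2 and 4 and below it in mice 1 and 3. The 6 other endothelial markers were at 0.822% to 1.40% and 1.81% to 9.60%. Both lists were summed without their leading gene after the values had been seen.

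Between tumour sites, Cxcl12 and Ackr3 were called in tumour cells without regard to the mouse. Neither call held over all 4 mice with the mouse as a block. Liver against peritoneal tumour cells gave Cxcl12 a log2 fold change of -4.21 (SE 0.88, edgeR adjusted p = 0.0330), where 3.20% of all genes were called. With the mouse as a block it was -3.77 with an edgeR adjusted p of 0.0697, which ended the call, as did leaving out any 1 of the 4 liver libraries (edgeR adjusted p = 0.0662 to 0.117). The liver tumour cells had 1 to 7 counts, so Cxcl12 passed the count filter through the peritoneal libraries alone. Its call is therefore no result beside the counts themselves. Without the filter the log2 fold change was -4.19 (edgeR adjusted p = 0.0197). Without the peritoneal library of mouse 1 the mean fold fell from 18.4 to 7.72, with a log2 fold change of -2.93 (edgeR adjusted p = 0.0139), and with the block as well it was -2.87 (edgeR adjusted p = 0.0283). Fibroblast markers also stood higher in peritoneal tumour cells, at 214 to 1470 CPM against 41.0 to 62.4 CPM in liver tumour cells, and their part in this difference was not tested.

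Ackr3 was higher in liver than in peritoneal tumour cells by 1.03, 1.42, 1.95 and 1.48 times in mice 1 to 4. The log2 fold change was 0.52 (SE 0.12, edgeR adjusted p = 0.0479), just past the threshold. With the mouse as a block it was 0.52 with an edgeR adjusted p of 0.124, so the call did not hold. With the block and without the peritoneal library of mouse 1 it was 0.66 (SE 0.10) with an edgeR adjusted p of 0.0164. The call was also lost without any 1 of liver libraries 2, 3 and 4 or peritoneal libraries 2, 3 and 4, with edgeR adjusted p-values of 0.0928 to 0.136.

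Cxcr4 did not differ between tumour sites beyond the spread of these libraries. Its log2 fold change of liver against peritoneal tumour cells was -1.42 (SE 0.85, edgeR adjusted p = 0.382), and without the peritoneal library of mouse 1 it turned to 0.41 (SE 0.44, edgeR adjusted p = 0.607). The 3 other mice had 1.35, 1.29 and 1.67 times as much Cxcr4 in liver tumour cells.

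In stroma both receptors were compared between sites as well. Cxcr4 was higher in the liver in each mouse, by 1.41, 2.04, 1.67 and 1.26 times, although the groups overlapped. The log2 fold change was 0.55 (SE 0.32, edgeR adjusted p = 0.226) without regard to the mouse and 0.60 (SE 0.12, edgeR adjusted p = 0.00958) with the mouse as a block, which made the call. Beside it, pan-leukocyte markers were at 3650 to 4560 CPM in liver stroma and 2420 to 2930 CPM in peritoneal stroma, and their part in the difference was not tested. Library totals alone, in place of TMM, raised the median log2 fold change of all genes in this comparison from 0.02 to 0.13 and the calls from 2202 higher and 2723 lower to 3552 higher and 2190 lower. The log2 fold change of Cxcr4 was then 0.66.

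Ackr3 went the other way in stroma. Its peritoneal level was 4.08, 3.38, 2.64 and 3.12 times the liver level in mice 1 to 4. The log2 fold change of liver against peritoneal stromal cells was -1.74 (SE 0.12, edgeR adjusted p = 9.12e-06). Epithelial and BMEL markers summed to 1200 to 1540 CPM in liver stroma and to 665 to 1080 CPM in peritoneal stroma. The part of tumour cell RNA in stromal Ackr3 was not tested.

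The site difference of Ackr3 thus had opposite signs in the tumour and stromal fractions. The difference between them, fitted over the 16 sorted libraries, was -2.18 on the log2 scale (SE 0.19, edgeR adjusted p = 5.99e-06), where 14.3% of genes were called. With the mouse as a block it was -2.17 (edgeR adjusted p = 3.47e-05), and over the alternatives run the edgeR or DESeq2 adjusted p was at most 3.47e-05. Leaving out each of the 16 libraries in turn gave -2.34 to -2.07. For Cxcr4 the same contrast was 2.03 (SE 0.97, edgeR adjusted p = 0.185), and without the peritoneal tumour cell library of mouse 1 it was 0.14 (edgeR adjusted p = 0.927).

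**Figure D3:**
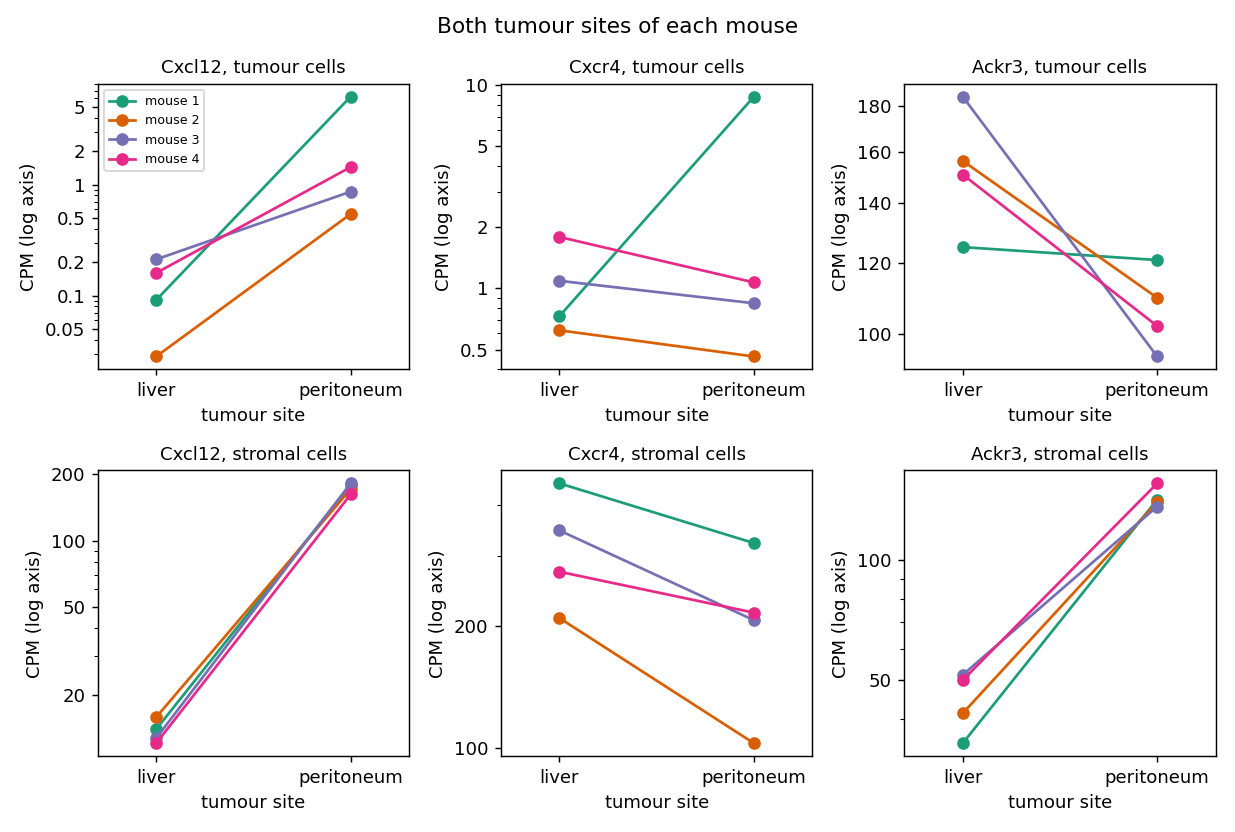
Lines join the liver and the peritoneal tumour of each of the 4 mice, for tumour cells (top) and stromal cells (bottom), with CPM on log axes that differ between panels. Ackr3 was lower in peritoneal than in liver tumour cells of all 4 mice and higher in peritoneal than in liver stroma of all 4, and Cxcr4 was lower in peritoneal stroma in all 4.

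**Figure D4:**
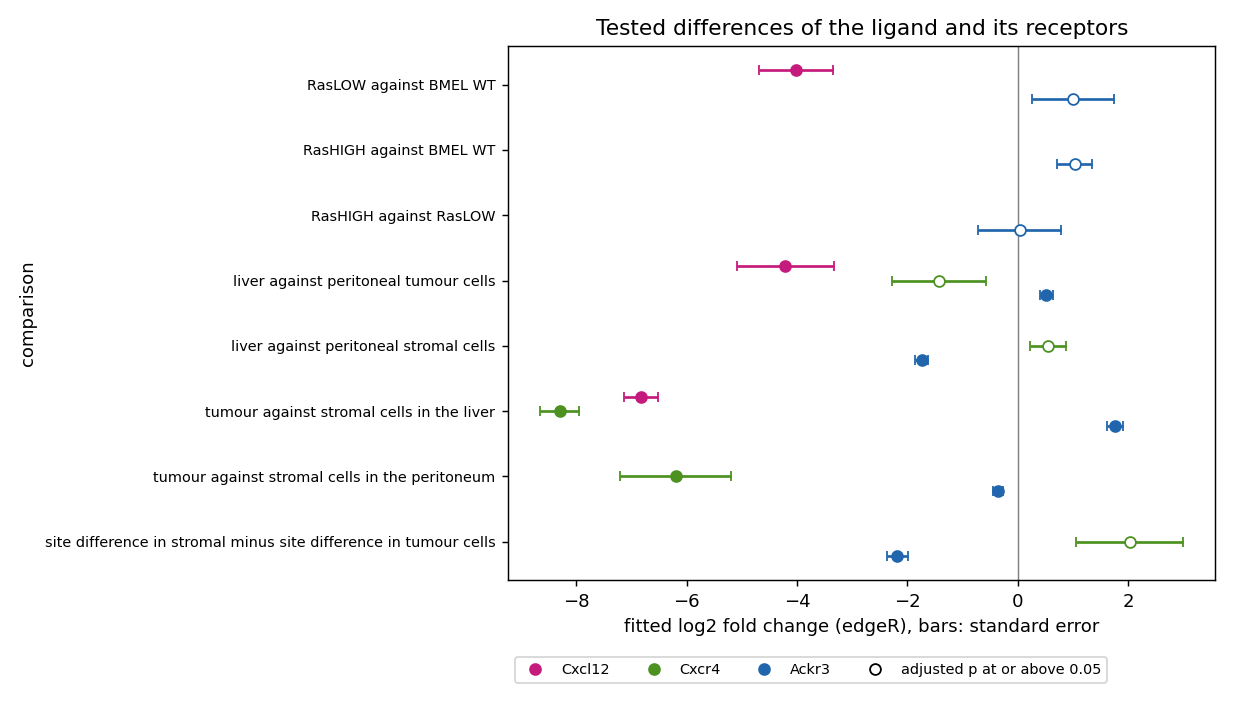
The x axis is the fitted edgeR log2 fold change of the first-named group against the second, with standard errors as bars, and each row is a comparison; open circles had an adjusted p at or above 0.05, and Cxcl12 is shown where it was tested. Ackr3 lies at 1.77 for tumour against stromal cells in the liver and at -0.36 in the peritoneum.

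Ordered by mean, Cxcl12 was highest in peritoneal stromal cells, followed by BMEL WT, liver stromal cells, RasLOW, peritoneal tumour cells, liver tumour cells and RasHIGH. Neighbours in that order did not overlap except RasLOW and peritoneal tumour cells. The share of all genes with such separation was counted only for tumour cells against cultures, so the orders given here are descriptions. The order of liver tumour cells and RasHIGH rests on 1 to 7 counts against 0 and was not resolved at the floor of 3 counts. Cxcr4 ran from liver stromal cells to peritoneal stromal cells, peritoneal tumour cells, liver tumour cells and the cultures at 0, with overlap between the sites in stroma and in tumour cells. Ackr3 ran from liver tumour cells to peritoneal stromal cells, which overlapped, then to peritoneal tumour cells and liver stromal cells, and last to the 3 cultured groups, in which RasLOW overlapped both others.

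Per kilobase of exon, the balance of the 3 transcripts differed from fraction to fraction. In BMEL WT, Cxcl12 was at 6.83 CPM per kb and Ackr3 at 1.71 CPM per kb. In liver tumour cells Ackr3 stood at 46.0 CPM per kb, Cxcr4 at 0.586 and Cxcl12 at 0.0150 CPM per kb. In liver stroma the order was Cxcr4 at 177, Ackr3 at 13.3 and Cxcl12 at 1.67 CPM per kb, and in peritoneal stroma it was Cxcr4 at 117, Ackr3 at 42.9 and Cxcl12 at 21.2 CPM per kb.

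The rest of the pathway was taken as 37 genes in 5 lists, all present in the table. In RasLOW against BMEL WT, 2 of 19 tested genes were called by edgeR, both lower, against 5.96% of all genes. They were Mmp2, a gelatinase that cleaves Cxcl12, and Gnai1, an inhibitory G protein subunit. The mean of Mmp2 was 13.9 ± 0.748 CPM in control cells, against 2.61 ± 1.56 CPM for RasLOW and 0.972 ± 0.154 CPM for RasHIGH (SD, n = 3). Gnai1 varied from 0.814 to 23.1 CPM among the BMEL WT cultures and was at 0 to 0.0405 CPM in RasLOW, under the floor. It passed the count filter through BMEL WT alone, so its call is no result. DESeq2 called 1 of the 37 genes, Mmp2, and gave Gnai1 no adjusted p. In RasHIGH, where 22.6% of all genes were called, 1 of 19 tested pathway genes was called, again Mmp2, with a log2 fold change of -3.86 (SE 0.22, edgeR adjusted p = 1.58e-04). Between RasHIGH and RasLOW edgeR called 0 of 18 tested pathway genes, with 1 at an unadjusted p under 0.05 and 0 by DESeq2.

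Between tumour cell sites 2 of 27 tested pathway genes were called, both lower in the liver, against 3.20% of all genes. They were Mmp2, at 1.22 ± 0.360 against 10.2 ± 9.25 CPM, and the chemokine Cxcl14, at 0.707 ± 0.532 against 4.43 ± 2.58 CPM (SD, n = 4). Both had higher levels in stroma than in tumour cells, with Mmp2 at 951 ± 244 CPM and Cxcl14 at 542 ± 185 CPM in peritoneal stroma. In peritoneal tumour cells Mmp2 ran from 3.47 to 23.9 CPM and Cxcl14 from 2.50 to 8.08 CPM. Neither fit is given without the peritoneal library of mouse 1.

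Between stromal sites 26 of the 37 genes were called, 18 higher and 8 lower in the liver, beside the 33.4% of all genes. The median log2 fold change of the lists was 0.31 against 0.02 over all genes tested. Of 9 genes for desensitization and turnover, which encode arrestins, receptor kinases and regulators of G protein signalling, 7 were higher in liver stroma and 1 was lower. Of 11 signal transducers 6 were higher and 2 lower, of 5 alternative ligands 2 were higher and 2 lower, and of 6 co-receptors and other receptors 2 were higher and 1 lower. Among 6 proteases known to cleave Cxcl12, Mmp9 was higher in the liver (log2 fold change 1.04, SE 0.29, edgeR adjusted p = 0.0198). Of the other two called proteases, both lower in the liver, Mmp2 had the larger difference (log2 fold change -4.03, SE 0.26, edgeR adjusted p = 6.31e-06). Cxcl11, the other chemokine ligand of Ackr3, was at 2.08 ± 0.275 CPM in liver stroma and 0.806 ± 0.441 CPM in peritoneal stroma, and the scavenging receptor Ackr4 was at 0.211 ± 0.172 and 1.5 ± 1.24 CPM (SD, n = 4).

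Between fractions, most of the pathway was stromal. In the liver 31 of 36 tested genes were lower in tumour cells and 3 were higher, and in the peritoneum 28 of 35 were lower and 3 higher, where 77.8% and 76.6% of all genes were called. The lower genes include some that were near the floor in tumour cells. By edgeR all 6 proteases were called lower in tumour cells at both sites, but the calls of Elane and Ctsg are no result. In the liver Elane and Ctsg passed the count filter through the stroma alone. In peritoneal tumour cells the lowest level of each was 0 CPM. DESeq2 called all 6 in the liver and 4 in the peritoneum, where it gave Elane and Ctsg no adjusted p. In peritoneal stroma Elane ran from 0.277 to 70.7 CPM and Ctsg from 0.693 to 37.5 CPM over the 4 mice. The neutrophil proteases Ctsg and Elane were at 8.39 ± 4.82 and 18.7 ± 10.1 CPM in liver stroma (SD, n = 4), and their highest levels in liver tumour cells, 0.0303 and 0.064 CPM, were at or under the floor, so no fold is given. In the peritoneum the receptor kinase gene Grk3 was at 49.1 ± 7.26 CPM in stroma and at 0.0738 to 0.905 CPM in tumour cells. Cd74, the invariant chain that also serves as a receptor for Mif, was at 4318 ± 469 CPM in peritoneal stroma and at 8.51 to 89.6 CPM in tumour cells there. Ptk2, which encodes focal adhesion kinase, was higher in tumour cells at both sites, with log2 fold changes of 1.73 and 1.31. Mif, an alternative ligand of Cxcr4, was also higher in tumour cells at both sites, with log2 fold changes of 0.65 in the liver and 1.03 in the peritoneum. Ptk2b, a close relative of Ptk2, was higher in the peritoneum (1.17), and its log2 fold change in the liver was 0.15 (edgeR adjusted p = 0.246).

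The site difference itself differed between fractions for 8 of the 37 genes, 6 upwards and 2 downwards, where 14.3% of all genes were called, 1150 upwards and 1041 downwards. The largest were Gnai1 (3.80, SE 1.13) and Ptk2b (0.97, SE 0.15) upwards and Mmp14 (-0.84, SE 0.18) and Ptk2 (-0.47, SE 0.11) downwards on the log2 scale. In tumour cells Gnai1 had no count in the 4 liver libraries and was at 0.0384 to 0.250 CPM in the peritoneal ones, so its value depends on the fit. It passed the count filter through the stroma alone. Its call, counted among the 6 upwards, is therefore no result.

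Over the 25 libraries, the genes whose log2(CPM + 1) followed each member most closely were found by Pearson's r among genes with a mean of at least 1 CPM. The libraries of 1 group share their source, so r is a description of the pattern over 7 groups. For Cxcl12 these were Vgll3 (r = 0.963), Pcdh18 (0.957), Gstm2 (0.955), Ces2g (0.951) and Pmp22 (0.948). Vgll3, which encodes a transcriptional cofactor of TEAD proteins, averaged 39.9 CPM in control, 0.157 CPM in RasLOW and 0 CPM in RasHIGH cultures, with 68.5 CPM in peritoneal stroma. Pmp22, which encodes a membrane protein of peripheral myelin, averaged 58.6 CPM in control and 2.50 CPM in RasHIGH cultures, with 109.6 CPM in peritoneal stroma.

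For Cxcr4 they were Entpd1 (r = 0.998), Ncf1 (0.997), Fcer1g (0.997), Tent5c (0.997) and Fyb (0.997). Entpd1 encodes the ectonucleotidase CD39, Ncf1 a subunit of the phagocyte oxidase and Fcer1g the common gamma chain of Fc receptors. Each of the 5 averaged at most 0.214 CPM in the cultured groups and at least 30.5 CPM in the stromal groups.

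For Ackr3 they were Has2 (r = 0.968), Plat (0.947), Ntan1 (0.934), Meis1 (0.932) and B3glct (0.930). Has2, which encodes hyaluronan synthase, had means of 0.191, 1.29 and 0.237 CPM in BMEL WT, RasLOW and RasHIGH. Its means were 172 CPM in liver tumour cells, 90.0 CPM in peritoneal tumour cells, 32.4 CPM in liver stroma and 103 CPM in peritoneal stroma, which is the order of the sorted groups for Ackr3. Plat, which encodes tissue plasminogen activator, was at 415, 277, 149 and 327 CPM in the same order, and at 43.3 to 73.5 CPM on average in the cultured groups.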

How the data were processed

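RNA sequencing was carried out with an mRNA library kit on 9 cultures and 16 sorted fractions. The authors aligned reads to mm9 with TopHat2 and deposited raw counts per gene, which are not normalized; the labels' processing notes instead list the builds mm8 and mm10, FastQC and Bowtie 0.12.2, and the counting program and its strand setting are not given in the sources used here. Positions and exon lengths were read from an mm9 gene annotation, which may not be the one used for counting.

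The analysis used edgeR 4.0.16 under R 4.3.3: filterByExpr (minimum count 10), TMM, quasi-likelihood F-test between the libraries of each pair of groups, and Benjamini-Hochberg adjustment over all genes tested, with calls at an adjusted p below 0.05. Levels are CPM with TMM over 25 libraries, with SDs. Detection floors of 3 counts cover counting error only. Replicates are separate cultures or mice; cultures share only a number. Tumour libraries with 1 number come from the same mouse, and correlations of same-mouse deviations ran from -0.216 to 0.287 over genes, so fits with the mouse as a block stand beside results they change. Alternatives were RLE size factors, library totals, DESeq2 1.42.0, no filter, all libraries in one fit, the block, single lanes and leaving out each library. Site comparisons were also fitted without mouse 2, whose liver and peritoneal libraries were in different lanes.

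The members, the gene lists and the tests were chosen with earlier results of these data known. Named genes are the members, up to 2 called pathway genes each way per comparison with the largest log2 fold change, the 5 genes most like each member, and marker genes; the neighbours of Cxcl12, Hras and the marker sums without Cd53 or Cdh5 were added after values were seen.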

Additional observations from a re-analysis of the deposited data

Results flagged for a closer look

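In groups of 4, a library was singled out when its gap to the nearest other library took up most of the range of the group (Dixon's criterion, which chance meets in about 1 group in 20). The peritoneal tumour cell library of mouse 1 was singled out for Cxcl12, at 6.21 CPM against 0.544 to 1.44 CPM in the 3 others, and for Cxcr4, at 8.80 CPM against 0.462 to 1.07 CPM. The same library had the highest fibroblast and macrophage marker sums of the 8 tumour cell libraries, at 1470 and 228 CPM, and the part of these cells was not tested. For Ackr3 the site difference was tested between fractions and differed, at -2.18 on the log2 scale for stromal minus tumour cells (SE 0.19, edgeR adjusted p = 5.99e-06), with stromal cells lower in the liver in 4 of 4 mice and tumour cells higher in the liver in 4 of 4.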

How the results depend on the processing

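Of 245 fits of the members under alternatives, 210 kept their direction and side of the threshold, 22 lost a call, 6 gained one and 7 changed sign. For Cxcl12 in RasLOW against BMEL WT the call was lost in lane 4 alone (-3.57), and leaving out each library gave -5.19 to -3.61 on the log2 scale. For Cxcl12 between tumour cell sites it was lost with the replicate block (-3.77) and without both libraries of mouse 2 (-4.22), with -4.60 to -2.93 without single libraries (lost without any 1 liver library). For Ackr3 between tumour cell sites it was lost with RLE size factors (0.52), all libraries in one fit (0.52), the replicate block (0.52) and without mouse 2 (0.51), with 0.41 to 0.61 without single libraries. For Ackr3 in tumour against stromal cells of the peritoneum it was lost with all libraries in one fit (-0.46). Ackr3 in RasHIGH against BMEL WT gained a call with DESeq2 (1.05), no filter (1.04) and the replicate block (1.05), with 0.88 to 1.36 without single libraries (called without BMEL WT culture 3 or RasHIGH culture 1). Cxcr4 between stromal sites gained a call with the replicate block (0.60). Signs changed for Ackr3 in RasLOW against BMEL WT (-0.16 to 1.5 without single libraries, -0.16 without RasLOW culture 1) and in RasHIGH against RasLOW (-0.46 to 1.21; -0.17 and -0.46 without RasLOW cultures 2 and 3, -0.01 and -0.12 without RasHIGH cultures 2 and 3), none of them called, and for Cxcr4 between tumour cell sites without the peritoneal library of mouse 1, from -1.42 to 0.41 (-1.82 to 0.41 without single libraries), or 0.49 with the replicate block, a combination chosen after seeing the data. The cause was not tested. The replicate block changed no other call of a member; among cultures, which share only a number, it moved the called genes from 734 to 294 in RasLOW and from 9 to 0 in RasHIGH against RasLOW, where 1170 genes had an unadjusted edgeR p under 0.05 and DESeq2 called 414.

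Mean levels kept within 1 SD in 113 of 117 recalculations; in peritoneal stroma Cxcl12 moved from 173 to 190.6 CPM with RLE size factors and 157 CPM with library totals, and Ackr3 from 144 to 158 and 130.3 CPM. Counts of all called genes moved by over 1.5 times in 36 of 120 fits: in RasLOW between 0 (lane 4 alone, 2 cultures fewer) and 2441 (one fit), in RasHIGH between 316 (lane 4 alone) and 4347 (one fit) from 2789, between Ras populations between 0 and 917, and between tumour cell sites between 41 and 1239 from 419. Library totals alone moved the calls between tumour cell sites from 174 higher and 245 lower to 136 and 366, and the calls of the fraction contrast from 1150 and 1041 to 1900 and 879. Of the 5 genes most like each member, Spearman's correlation kept 2 for Cxcl12, 0 for Cxcr4 and 2 for Ackr3, and a pseudocount of 0.1 kept 2, 1 and 3. Cxcl12 in liver tumour cells and Cxcr4 in culture were at or near the depth limit.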
